A study of Homo sapiens with 2 samples.

Results

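The Notch genes examined here are 10 genes chosen by symbol from the 57736 genes measured by RNA-Seq in HEK293T, an established line of human embryonic kidney cells that also makes the large T antigen of SV40. They comprise 3 receptors (NOTCH1, NOTCH2 and NOTCH3), 4 ligands (JAG1, JAG2, DLL1 and DLL3), the nuclear partner RBPJ and 2 target genes (HES1 and HEY1). The cells were wild type and untreated, were grown in serum-containing medium and gave 2 libraries of poly(A)+ RNA, labelled replicate 1 and replicate 2, so the study holds 1 group here. The labels and the RNA-Seq methods do not say whether the replicates were separate cultures, so the spread between them may be technical. No condition could be compared with another, and the comparisons are between genes and between the replicates. The libraries held 10593491 and 10104118 estimated counts.

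Notch receptors are carried on the surface of one cell and are bound by Delta-like (DLL) or Jagged (JAG) ligands on its neighbour. Binding lets ADAM proteases and then the gamma-secretase complex cut the receptor, which frees its intracellular part to enter the nucleus. There it joins the DNA-binding protein RBPJ and a Mastermind-like coactivator, and genes such as those of the HES and HEY repressor families are switched on. Without Notch, RBPJ sits with corepressors on the same genes. In the kidney the pathway is known for its part in setting the fate of nephron segments.

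The labelled tissue was kidney, and of 12 kidney markers with values only LRP2 and PAX2 were detected, while 5 were at 0 counts in both replicates. Of 12 neuronal markers 6 were detected, beside 63.7% of all protein-coding genes. TPM values give the level of a gene per transcript length and add up to one fixed total in every library. The summed TPM of the neuronal list was 302 and 307 in the replicates, of which UCHL1 alone held 83.1%, and that of the kidney list was 13.2 and 13.7. Of 9 markers of blood, vessel, connective tissue and other cells, COL1A1 alone was detected and 5 were at 0. In bulk RNA fewer cells with a transcript and less of it per cell cannot be told apart.

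Of the 10 genes 9 were detected, meaning that their TPM reached 1 in each replicate. JAG1 was the exception. Among all genes 27.7% were detected, and among protein-coding genes, the closer background, 63.7%. The median of the mean TPM was 12.6 for the 10 genes, 6.50 for the 19391 protein-coding genes and 0.075 for all genes. Their order by mean TPM was HEY1, RBPJ, NOTCH2, HES1, JAG2, NOTCH3, NOTCH1, DLL1, DLL3 and JAG1, which spans targets and nuclear partner at the top and most ligands at the bottom. Neighbours in this order were set apart where neither replicate values nor exact 95% Poisson intervals of summed counts, scaled to mean TPM, overlapped. This held for 7 of 9 neighbouring pairs. JAG2 and NOTCH3 did not differ beyond their spread, since their replicate values overlapped, and DLL1 and DLL3 had overlapping intervals. These intervals cover counting error only, since PCR can give several reads from one molecule.

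**Figure D1:**
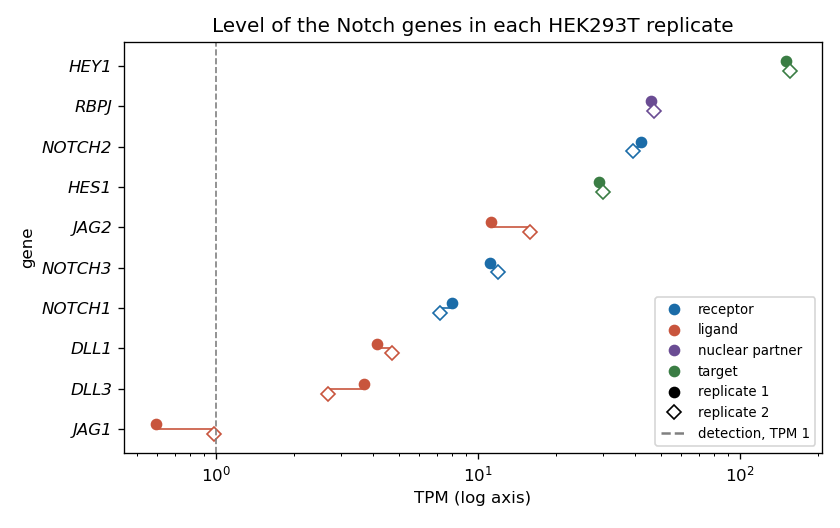
TPM on a log axis of each of the 10 Notch genes in replicate 1 (filled circles) and replicate 2 (open diamonds), coloured by role, with the detection threshold of 1 as a dashed line. HEY1 lies at 151 and 156, the 4 ligands spread from 0.59 to 15.9, and JAG1 is the gene left of the threshold.

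NOTCH2 was the receptor with the highest level. It lies on chromosome 1 from 120454176 to 120643366 on the minus strand (GRCh37). Its TPM was 42.1 in replicate 1 and 39.2 in replicate 2, a mean of 40.7 ± 2.02 (SD, n = 2), from 3275 and 2985 estimated counts. Its mean stood above 80.9% of the protein-coding genes, and the replicates lay close together.

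NOTCH3 and NOTCH1 followed. NOTCH3, on chromosome 19 from 15269849 to 15311806, had a TPM of 11.2 and 12.0 from 548 and 600 counts. NOTCH1, on chromosome 9 from 139388885 to 139440500, had a TPM of 8.0 and 7.22 from 491 and 460 counts. The replicate values of the 3 receptors did not overlap, with NOTCH2 exceeding NOTCH3 3.76-fold and 3.27-fold and exceeding NOTCH1 5.26-fold and 5.43-fold in the replicates. NOTCH4, the remaining receptor gene of the human genome, was near the floor with 7 and 9 counts and a TPM of 0.44 and 0.67.

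Of the summed TPM of the 4 receptor genes, NOTCH2 held 67.3% ± 1.29, NOTCH3 19.2% ± 1.52, NOTCH1 12.6% ± 0.528 and NOTCH4 0.923% ± 0.297 (SD, n = 2). The order of the receptors was the same in both replicates. In estimated counts, which are not scaled by length, NOTCH2 held 74.7%, its transcript being the longest of the 3 at a mean of 10483 and 10646 nt in the replicates.

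Part of the NOTCH2 sequence recurs elsewhere in the genome, in the NOTCH2NL genes, partial copies of its 5′ end that lie on the same chromosome. Reads were 50 nt long, so every 50-nt window of the transcripts annotated for NOTCH2 was searched on both strands in the transcripts of all other genes (GENCODE release 44 mapped to GRCh37). Of 16844 different windows 1244, or 7.39%, were also found in another gene, and 1237 of these were found in NOTCH2NLA. In the longest coding transcript, of 11425 nt, shared windows made up 4.42% and all began within its first 1000 nt. Within coding exons, 289 of 5747 windows that lie in 1 exon were identical in NOTCH2NLA, in exons 1 to 4 of 34. The lines below give a pair of windows to show why reads from this part of the gene may or may not be assigned. Exon numbers are those of the NOTCH2 transcript, also in the line for NOTCH2NLA. The first, in exon 1 at chr1:120611968-120612017 on the minus strand, is identical in both genes. The second, in exon 3 at chr1:120548031-120548080 on the minus strand, differs by A26G, where positions are counted from 1 at the 5′ end of the window, NOTCH2 has the first base and NOTCH2NLA the last, and the capital marks the difference.
NOTCH2 and NOTCH2NLA, exon 1: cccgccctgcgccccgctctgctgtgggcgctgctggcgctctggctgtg
NOTCH2, exon 3: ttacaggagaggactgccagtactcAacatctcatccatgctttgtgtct
NOTCH2NLA, exon 3: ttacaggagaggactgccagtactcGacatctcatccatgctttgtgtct

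The files hold 1 row whose transcripts the annotation places in NOTCH2NLA, under the identifier ENSG00000213240, and it was matched by those transcripts. This row, called NOTCH2NLA here, had 311.75 and 365.50 estimated counts and a TPM of 18.3 and 22.3. The posterior SD of its count, the authors' measure of how uncertain the sharing of reads is, was 13.06 and 14.11 counts, against 13.05 and 14.07 for NOTCH2. The uncertainty was thus nearly equal on both rows. It came to 0.398% of the NOTCH2 count in replicate 1 and to a larger share of the NOTCH2NLA count, which was smaller.

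NOTCH2NLA took 8.69% and 10.9% of the counts of the pair in the replicates, but 30.3% and 36.3% of the TPM, since its transcripts are shorter, with a mean of 2331 and 2327 nt. With the TPM of the copy added to NOTCH2, the receptor share of NOTCH2 became 75.5% in place of 67.3%. This sum keeps the shorter length of the copy, and the same counts scaled by the length of NOTCH2 would add less. The pseudogene NOTCH2P1 had 0 counts. NOTCH2NLB, NOTCH2NLC and NOTCH2NLR share 958, 1134 and 814 windows with NOTCH2 and had no row of their own. On GRCh37 the annotation places them within the stretch of NOTCH2NLA, chromosome 1 from 145209104 to 145291972. The row called NOTCH2NLA thus stands for this stretch, and the levels of the NOTCH2NL genes could not be told apart. Whether reads from NOTCH2NLB, NOTCH2NLC or NOTCH2NLR were counted under NOTCH2 or this row was not tested.

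**Figure D2:**
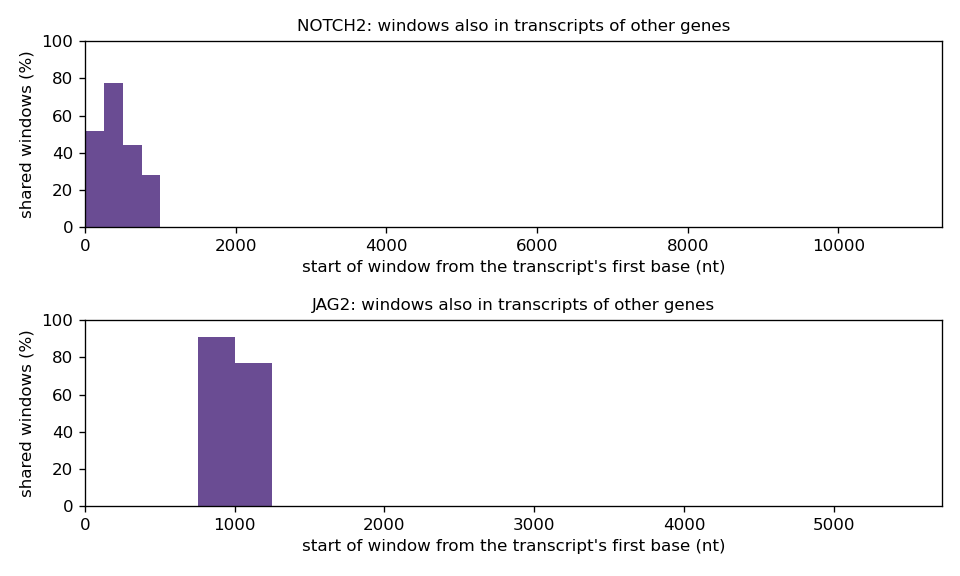
Percent of 50-nt windows that also occur in a transcript of another gene, in steps of 250 nt along the longest coding transcript of NOTCH2 (top) and JAG2 (bottom), by the distance of the window's start from the first base of the transcript. In NOTCH2 the 4 steps with shared windows are the first 4 of 46 and reach 77.6%, and in JAG2 they are the steps from 751 to 1250 nt.

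JAG2 was the ligand with the highest level. It lies on chromosome 14 from 105607319 to 105635161 on the minus strand. Its TPM was 11.2 in replicate 1 and 15.9 in replicate 2, although its estimated counts were close, 378.57 and 361. The Delta-like ligand DLL1, on chromosome 6 from 170591294 to 170615653, had a TPM of 4.12 and 4.72 from 96 and 106 counts. JAG2 exceeded DLL1 2.73-fold and 3.36-fold in the replicates, and their values did not overlap. These levels cover all transcripts of a gene, coding or not.

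DLL3 is known as a ligand that works mainly within its own cell and blocks Notch rather than activating it in a neighbour. It lies on chromosome 19 from 39989535 to 39999121 on the plus strand. Its TPM was 3.70 and 2.68 from 60 and 44 counts.

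JAG1, on chromosome 20 from 10618332 to 10654647, had the lowest level of the 10 genes. Its TPM was 0.59 and 0.99 from 26 and 35.75 counts, so reads were present in both replicates but the detection threshold was missed. With a threshold of 10 estimated counts in both replicates, or of a TPM of 0.1, all 10 genes were detected. DLL4, the ligand known from blood vessels, had 7 and 9 counts and a TPM of 0.33 and 0.51.

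Of the summed TPM of the 5 ligand genes, JAG2 held 60.2% ± 5.50, DLL1 19.8% ± 1.09, DLL3 14.7% ± 5.43, JAG1 3.47% ± 0.740 and DLL4 1.86% ± 0.289 (SD, n = 2). JAG2 was first in both replicates. DLL1 and DLL3 were nearer each other in replicate 1, at 20.6% and 18.5%, than in replicate 2, at 19.1% and 10.8%. The receptor genes summed to 61.7 and 59.1 TPM and the ligand genes to 20.0 and 24.8, a ratio of 3.09 and 2.39. NOTCH2 alone had a mean TPM 1.82 times that of the 5 ligand genes together.

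**Figure D3:**
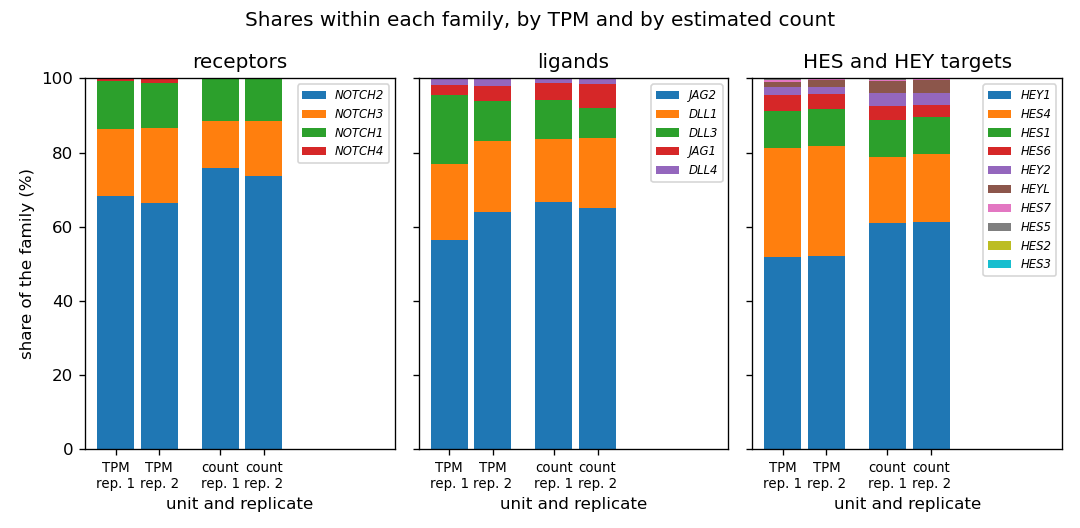
Share in percent of each gene in the summed value of its family (4 receptors, 5 ligands, 10 HES and HEY genes), as stacked bars for each replicate (rep.) by TPM and by estimated count. NOTCH2, JAG2 and HEY1 each hold the largest share of their family in all 4 bars, and the TPM share of JAG2 moves between the replicates from 56.3% to 64.1%.

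The JAG2 TPM differed between the replicates while its counts hardly moved, so the length by which counts are divided was examined. The transcript length given for a gene is a mean over its transcripts weighted by their estimated abundance. For JAG2 it was 4560 nt in replicate 1 and 3218 nt in replicate 2, so the effective length differed 1.42-fold. The TPM differed 1.41-fold, while the ratio of the library-scaled counts, replicate 2 over replicate 1, was 1.00 with a 95% interval from 0.868 to 1.16. With 1 length for both replicates, an alternative chosen after the data were seen, the TPM of JAG2 was 13.3 and 13. Its share of the summed TPM of the ligand genes was then 60.3% and 59.7%.

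A change in effective length of more than 1.25-fold was found in 9.18% of the detected genes and in 1 of the 9 detected Notch genes, JAG2. The files list 5 transcripts of JAG2. By the annotation 2 are coding, with 5720 and 5773 nt, and 3 are transcripts with retained introns of 768 to 2275 nt. Taking these lengths, the mean length of JAG2 corresponds to coding transcripts making up between 65.3% and 76.6% of JAG2 transcripts in replicate 1 and between 27.0% and 49.5% in replicate 2. These bounds do not overlap, but they rest on lengths from a later annotation than the authors used, which equalled the deposited length for 89.3% of the 34175 genes with 1 transcript. Among the Notch genes the lengths could differ, since DLL1, with 1 transcript, had 3174 nt in the files and 3779 nt in the annotation, and JAG1 had 5987 nt in replicate 1 against a longest transcript of 5940 nt. The bounds are also estimates from 50-nt reads with no error attached. The TPM of JAG2, its lead over DLL1 and its share of the ligand genes cover all its transcripts. For its coding transcripts alone they were not computed.

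JAG2 also shares 423 of its 6473 windows with ENSG00000257622, a lncRNA gene that overlaps it on the same strand. The lncRNA was given 21.86 counts in replicate 1 and 0 in replicate 2, with a posterior SD of 7.70 and 5.21 counts, near the 7.60 and 5.06 of JAG2. The sum of both genes was 400.43 and 361 counts.

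**Figure D4:**
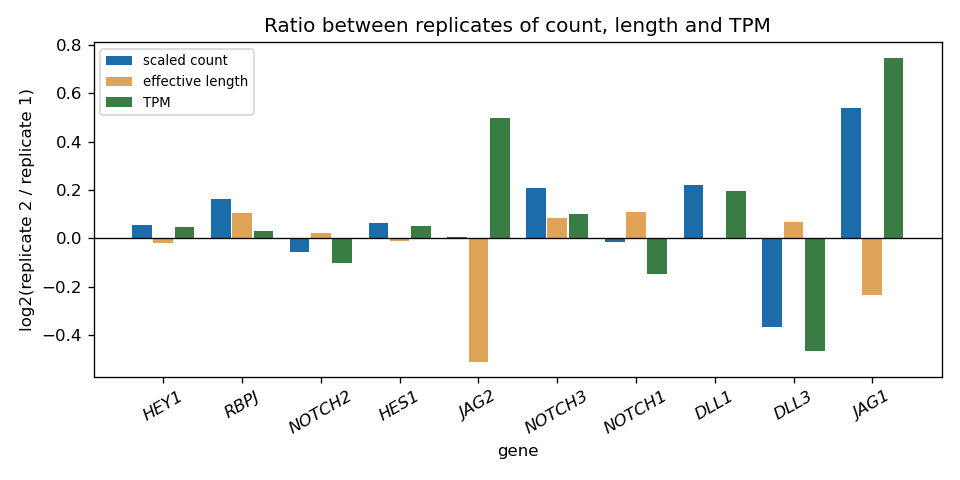
Log2 ratio of replicate 2 over replicate 1 for each Notch gene, in order of mean TPM, for the library-scaled count, the effective length and the TPM. For JAG2 the count bar is at 0.01, while length and TPM are at -0.51 and 0.50, and among the 4 genes with the highest TPM the bar farthest from 0 is the RBPJ count at 0.16.

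RBPJ, the DNA-binding protein through which all Notch receptors act, lies on chromosome 4 from 26165077 to 26436753. Its TPM was 45.9 and 47.0, a mean of 46.4 ± 0.735 (SD, n = 2), from 1115 and 1181.93 counts. RBPJ exceeded NOTCH2 by 1.14-fold, the smallest step in the order that was still set apart. Its level depended on the estimator. The authors' posterior mean TPM of RBPJ was 54.9 in both replicates, and the TPM lay below the lower bounds of the posterior interval, 47.7 and 48.4. The files list 31 transcripts for RBPJ, the largest number among the 10 genes.

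RBPJ has processed copies elsewhere in the genome, but few reads were placed in them. The pseudogenes RBPJP5, RBPJP6 and RBPJP7 had 0 counts and RBPJP2 had 0 and 1.07. The posterior SD of the RBPJ count was at most 0.67 counts. Its paralogue RBPJL, known from the pancreas, had 0 counts in both replicates, and 3 counts, the number that a count of 0 allows, would be a TPM of 0.287 and 0.298.

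The target HEY1, a basic helix-loop-helix repressor, had the highest level of the 10 genes. Its TPM was 151 and 156, a mean of 154 ± 3.68 (SD, n = 2), from 2018 and 1986 counts. HEY1 stood above 96.2% of the protein-coding genes. HES1, the repressor used most often as a readout of Notch, had a TPM of 29.1 and 30.2 from 325 and 322 counts. The ratio of HEY1 to HES1 was 5.18 and 5.17, so the replicates were nearly equal in it. HES1 lies on chromosome 3 from 193853937 to 193856521 on the plus strand.

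Among the 10 HES and HEY genes, HEY1 held 52.0% ± 0.254 of the summed TPM, HES4 29.4% ± 0.144 and HES1 10.0% ± 0.0695 (SD, n = 2). HES4 is a relative of HES1 that mice lack. Its TPM was 85.4 and 88.3 from 595 and 593 counts, so it lay between HEY1 and HES1 in both replicates. HES6 had a TPM of 12.8 and 11.8, HEY2 6.27 and 5.94 and HEYL 4.13 and 5.58. The remaining HES genes were low. HES7 had 15 and 8 counts, HES5 8 and 4, HES2 4 and 3 and HES3 0 in both replicates, where 3 counts would be a TPM of 0.620 and 0.644.

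RBPJ is known to bind DNA at the letters TGGGAA, so the promoters of the HES and HEY genes were searched for them. RefSeq promoters (GRCh38.p14) span 250 bases before the start of a gene and 50 after it. TGGGAA, on either strand, was found in 24.0% of 35116 such promoters, and at least 1 promoter held it for 28.1% of 27305 genes. Of the 9 HES and HEY genes matched to such promoters, 6 held it, namely HES1, HES3, HES4, HES5, HEY2 and HEYL. The longer GTGGGAA, which contains the former, was held by 5 of the 9, against 7.62% of all genes. Among the 7 matched genes of the 10, HES1 held TGGGAA and so did RBPJ, in 1 of its 5 promoters. HEY1, DLL1 and DLL3 were not matched.

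The 250 bases before the start of HES1, HES4 and HES5 are shown because the 3 genes carry the letters at a like distance while their levels differ. They were located in GRCh37, HES1 at chr3:193853687-193853936 on the plus strand, HES4 at chr1:935478-935727 and HES5 at chr1:2461703-2461952, both on the minus strand. Each is written 5′ to 3′ on the strand of its gene, with TGGGAA, or its reverse complement TTCCCA, in capitals.
HES1: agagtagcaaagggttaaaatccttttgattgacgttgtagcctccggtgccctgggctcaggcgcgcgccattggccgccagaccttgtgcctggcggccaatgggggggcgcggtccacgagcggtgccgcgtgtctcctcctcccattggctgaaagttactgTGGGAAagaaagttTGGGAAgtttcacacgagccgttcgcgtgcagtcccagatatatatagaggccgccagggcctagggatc
HES4: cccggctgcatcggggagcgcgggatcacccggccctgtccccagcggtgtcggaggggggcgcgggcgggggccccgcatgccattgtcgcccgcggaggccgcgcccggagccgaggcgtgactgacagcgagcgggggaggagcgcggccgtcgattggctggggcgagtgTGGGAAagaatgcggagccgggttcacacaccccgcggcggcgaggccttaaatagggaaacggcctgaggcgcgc
HES5: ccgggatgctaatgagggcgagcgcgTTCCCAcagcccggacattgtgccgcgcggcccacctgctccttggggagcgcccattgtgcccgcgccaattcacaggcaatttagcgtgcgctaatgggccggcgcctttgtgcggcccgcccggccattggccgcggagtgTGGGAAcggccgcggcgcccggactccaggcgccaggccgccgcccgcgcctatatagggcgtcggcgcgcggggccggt

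TGGGAA began 84 and 70 bases before the start of HES1, 76 bases before that of HES4 and 80 bases before that of HES5, where TTCCCA began at 224. The mean TPM of these genes was 29.7, 86.9 and 0.645. Over the 6 HES and HEY genes with the letters it ranged from 0 to 86.9, and over the 3 without them, HES2, HES6 and HES7, from 0.155 to 12.3. A match of letters is a description and was not tested as a binding site.

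The genes that process, carry and read out Notch were described from 12 lists by role holding 97 genes, the 10 included. Of the other 87 genes 73, or 83.9%, were detected, beside 63.7% of all protein-coding genes. Their median mean TPM was 18.5, against 6.50 for protein-coding genes.

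All 6 genes of gamma-secretase, the enzyme that cuts the receptor within the membrane, were detected. PSEN2, a catalytic subunit, had a TPM of 29.2 and 28.2. NCSTN, which encodes the substrate-binding nicastrin, had 54.3 and 51.7 and PSENEN 51.9 and 53.7. The alternative scaffold subunits stood far apart, with APH1A at 106 and 95.5 and APH1B at 3.44 and 4.63. All 3 proteases that cut the receptor earlier were detected, from ADAM10 at 24.7 and 34.6 to ADAM17 at 15.9 and 15.2. The counts of ADAM10, 494 and 523.51, differed less than its TPM, and its effective length differed 1.28-fold.

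Of 9 genes for O-glycosylation, which tunes the response of receptors to ligands, 8 were detected. POFUT1, which adds fucose to the receptor, was the highest at 46.0 and 47.8. The Fringe genes, which extend that fucose, differed among themselves. RFNG was at 22.7 and 24.0, LFNG at 1.47 and 1.60 and MFNG at 0.28 and 1.00. Counts were few for LFNG, at 21 and 16, and MFNG was near the floor with 1 and 4. LFNG had the lowest level of the 8 detected genes. In the list of ligand and receptor traffic 12 of 15 genes were detected, from EPN1, an endocytic adaptor, at 63.5 and 57.0 to NEURL1B at 1.23 and 1.34. MIB1, the ubiquitin ligase needed for ligand uptake, had a TPM of 26.1 and 27.2.

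In the nucleus 9 of 10 genes of the transcription complex were detected, from SNW1 at 88.0 and 92.1 to MAML2 at 1.54 and 2.22. All 16 corepressor genes were detected, from HDAC2, a histone deacetylase, at 249 and 237 to BEND6 at 2.27 and 2.36. The median of the corepressor list, 75.4 TPM, was the highest of the 12 lists, and that of the ligands, 3.19 TPM, the lowest. The 3 genes of turnover of the intracellular receptor ranged from CCNC at 62.2 and 60.8 to FBXW7, the ubiquitin ligase subunit that marks it for decay, at 15.4 and 12.4. Of 7 noncanonical ligands 4 were detected, from MFAP2 at 20.4 and 17.7 to DLK2 at 3.93 and 3.83, and DLK1 had 0 counts in both replicates, where 3 counts would be a TPM of 0.463 and 0.481. Of 10 further genes known as targets in some tissues 9 were detected, from MYC at 73.7 and 71.5 to BHLHE41 at 5.07 and 4.61.

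**Figure D5:**
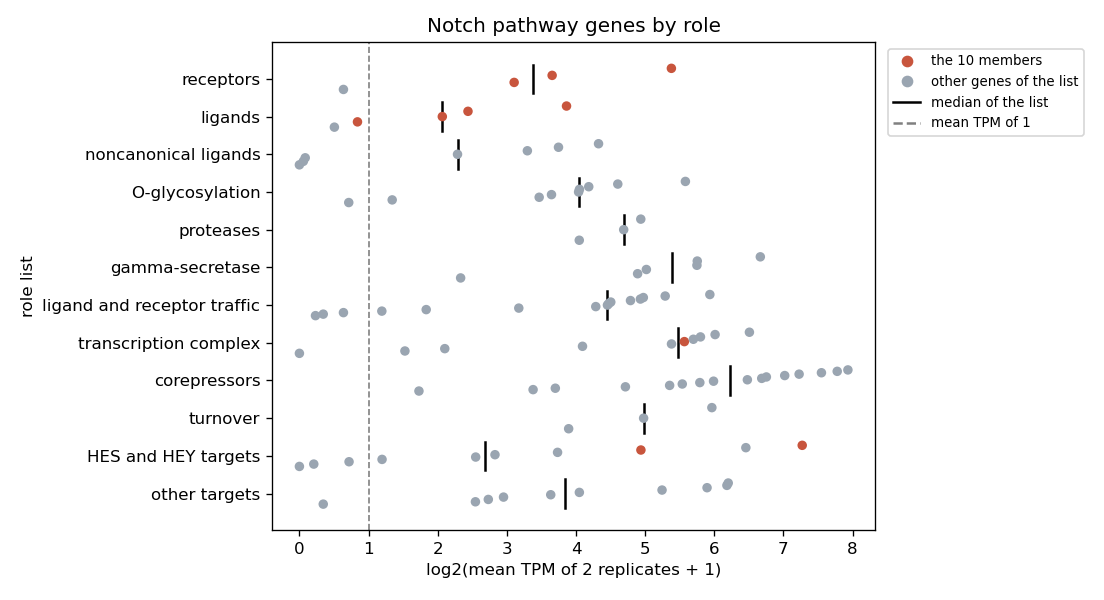
Log2(mean TPM + 1) over the 2 replicates for the 97 genes of the 12 role lists, with the 10 Notch genes in red, other genes in grey, and the median of each list as a black line. The corepressor list has the highest median and the ligand list the lowest, and HEY1 lies farthest right among the HES and HEY genes.

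The libraries themselves were set against each other gene by gene, with counts weighed against scaled library sizes in an exact binomial test (two-sided) and p-values adjusted by the Benjamini-Hochberg method over 17920 genes. The test compares these libraries, not conditions. It called 694 genes, or 3.87%, and 0 of the 10 Notch genes. At an unadjusted p under 0.05 were 2383 genes, among them RBPJ and NOTCH3.

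RBPJ had an unadjusted p of 0.0075 and an adjusted p of 0.125 in this exact test, with a count ratio of 1.12 (95% interval 1.03 to 1.21). NOTCH3 had an unadjusted p of 0.0154 and an adjusted p of 0.195 in the exact test, with a count ratio of 1.16 (95% interval 1.03 to 1.3). Both were higher in replicate 2. The ratio of DLL3 was 0.774 with an interval from 0.512 to 1.16 at its 104 summed counts, so a difference between the replicates was not detectable at this depth. Of the other pathway genes, MIB1 and APH1A passed in the exact test, with adjusted p of 0.000806 and 0.0412. MIB1 had 1422 and 1584 counts and was higher in replicate 2 after scaling, and APH1A had 1419 and 1187 counts and was lower. The median absolute log2 ratio of TPM between the replicates was 0.12 for the 10 Notch genes and 0.14 for detected protein-coding genes.

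The 6 genes with whole counts in both replicates (NOTCH1, NOTCH3, DLL1, DLL3, HES1 and HEY1) also had a posterior SD of 0, so no read was shared out in the authors' estimate. Counts were whole in 48.5% of all detected genes. DLL1 was among them although 8.61% of the windows of its coding transcript also lie in FAM120B, a gene on the opposite strand that overlaps it and had 826 and 745 counts. FAM120B also had whole counts and a posterior SD of 0. The window share rests on a DLL1 transcript of 3779 nt, longer than the 3174 nt in the files, and whether the transcripts that were counted overlap was not tested. The sources used here do not say if strand was used in counting. JAG1 shares 259 of its 9483 windows with ENSG00000270792, an overlapping lncRNA gene on the opposite strand with 0 counts in both replicates. Of further overlapping genes, MIR4673 (NOTCH1) and ENSG00000273406 (NOTCH2) had 0 counts. ENSG00000227512 (NOTCH1) and ENSG00000271234 (DLL1) had at most 1 count in a replicate.

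The width of the authors' 95% posterior interval tracked the counts unevenly. For HEY1 it was 12.3% of the TPM in replicate 1, from 133 to 151, and its TPM of 156 in replicate 2 lay just above the upper bound of 155. The width was 15.4% for NOTCH2, from 37.9 to 44.4. For NOTCH3 it was 53.2%, from 10.2 to 16.1, and for NOTCH1, with fewer counts, 37.1%, from 6.67 to 9.63. The widest was that of JAG1 in replicate 1, at 78.3%, and that of DLL3 in replicate 2, at 88.4%. The files list 6 transcripts for NOTCH3 and 3 for NOTCH1.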

How the data were processed

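Gene-level tables of poly(A)+ RNA-Seq from 2 HEK293T samples were used. Per the labels and the study's methods, the authors used Trimmomatic 0.36 to trim the 50-nt reads and STAR 2.6.1c for alignment to GRCh37 with Ensembl genes. The submitters' processing notes name RSEM 1.3.1, whose columns the tables have, while the methods name featureCounts. Estimated counts as deposited share multiply mapped reads among genes. TPM and FPKM values were scaled by length by the authors. The posterior SD and interval bounds are scores deposited by the authors. A table for the pooled reads served as an alternative only.

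Symbols came from GENCODE release 44 mapped to GRCh37 (96.1% of identifiers matched). Counts were rounded and tested with scipy 1.17.1 on TMM sizes from edgeR 4.0.16, over genes whose counts summed to 10 or more, a test also run on simulated data. The members and lists were chosen with earlier results of these data known. Named were the 10 genes, all receptors, ligands, HES and HEY genes and gamma-secretase subunits (1 is not reported here), the highest and lowest detected gene of each other list, genes at 0, genes that differed, copies and overlapping genes. CNTN1, KAT2B, TLE2, RFNG and MFNG fall outside this rule where named and were chosen after their values were seen. Alternatives were other thresholds, units, normalizations, filters and leaving out each replicate.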

Additional observations from a re-analysis of the deposited data

How the results depend on the processing

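The depth limits the low genes, since DLL3 and JAG1 rest on at most 60 counts in a replicate. No paired analysis was possible because both samples form 1 group. The shares depended on the unit. By estimated counts, not scaled by length, NOTCH2 held 74.7% of the receptors, JAG2 65.8% of the ligands and HEY1 61.1% of the targets. By the posterior mean TPM NOTCH2 held 64.3% and HEY1 51.1%. With the TPM of its copy added, scaled by the copy's own length, NOTCH2 held 75.5%. Each stayed the gene with the largest share of its family under these settings. Genes that differed between the libraries fell from 694 to 67 when only the 8675 genes with whole counts were tested, or from 3.87% to 0.772% of the genes tested, and the cause was not tested. No Notch gene was called under any of the 6 settings of the exact binomial test. The smallest adjusted p among the Notch genes tested ranged from 0.111 to 0.312. Not all 10 were tested in each setting. With a summed count of at least 100, 9 were tested. With whole counts only, the setting of the 0.312, 6 were tested and RBPJ was not among them. The number of detected Notch genes ranged from 7 at a TPM of 5 to 10, that of detected pathway genes from 70 to 91, and 7 or 8 neighbouring pairs were set apart. By estimated counts the order was another, with NOTCH2 above HEY1 and RBPJ, NOTCH3 and NOTCH1 above JAG2, and JAG2 above HES1. The posterior mean TPM moved 4 of 10 levels (NOTCH3, HES1, HEY1 and RBPJ) by more than 1 SD. Of these 4 RBPJ moved the most, at 1.18-fold. DLL3 moved 1.19-fold, which was within its SD of 0.721.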

Other observations

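Chosen after the values were seen, 7 pathway genes beside JAG2 were detected and had effective lengths that differed by more than 1.25-fold between the replicates. With JAG2 these were 8 of the 82 detected pathway genes, or 9.76%, beside 9.18% of all detected genes. The 3 largest differences are given. For CNTN1, a cell adhesion protein and noncanonical ligand, the counts were 184 and 179 while the TPM was 10.7 and 6.92, and the effective length differed 1.57-fold. KAT2B, an acetyltransferase that works with the Notch complex, had 292 and 261 counts and a TPM of 19.7 and 12.5, with a 1.46-fold difference in effective length. TLE2, a Groucho corepressor, had 103 and 96 counts and a TPM of 7.88 and 10.9, with a 1.44-fold difference. None of these 3 was called by the exact binomial test, with adjusted p of 1.0, 0.891 and 1.0. The direction was not shared, since the TPM was lower in replicate 2 for CNTN1 and KAT2B and higher for TLE2.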
